A study of Bos taurus with 64 samples.

Results

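The cluster of miR-424, miR-450 and miR-542 is a group of microRNA (miRNA) genes on the X chromosome, and 5 of its mature miRNAs were followed in skeletal muscle of steers: bta-miR-424-5p, bta-miR-424-3p, bta-miR-450a, bta-miR-450b and bta-miR-542-5p, written below without the cattle prefix. They are 5 of the 1030 names in the deposited count table. They were chosen by their joint fall on the concentrate diet in these same libraries, so every diet difference given for them is a description of what chose them and carries no test. The comparisons of breed, of feed efficiency and of how far the members move together within groups were not used in the choice and were tested.

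The study sequenced small RNA from 64 muscle samples of 59 Charolais (beef) and Holstein-Friesian (dairy) steers. Each steer was fed fresh cut grass indoors (zero-grazed) and later a high concentrate diet of mostly rolled barley with a limited allowance of grass silage. Each phase lasted 70 days, with 14 days of acclimatisation between them. The labels' phase numbers do not begin at the grass phase, and the feeding before it is not described here. Residual feed intake (RFI) is the feed an animal eats beyond what its size and growth predict, so a low-RFI steer is the more efficient one. Of 90 Charolais and 77 Holstein-Friesian steers with recorded intake, low-RFI and high-RFI animals of each breed were sampled at the end of each phase. That made 8 groups of 8 libraries: low-RFI Holstein-Friesian on concentrate, high-RFI Holstein-Friesian on concentrate, low-RFI Charolais on concentrate, high-RFI Charolais on concentrate, and the same 4 classes on grass. The concentrate phase always followed the grass phase, so diet, age and time of sampling cannot be told apart. Only 5 animals, 4 Charolais and 1 Holstein-Friesian, gave a library on each diet, and 1 of the Charolais was in the high-RFI class on grass and the low-RFI class on concentrate. Neither the muscle's name nor the ages are stated in the sources used here.

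MicroRNAs are short RNAs that bind messenger RNAs through a seed, the bases next to their 5′ end, and lower the output of those messengers. The hairpin of a miRNA gene can give a mature miRNA from its 5′ arm (5p) and another from its 3′ arm (3p). miR-424-5p, called miR-322 in rodents, belongs to the extended miR-15/16 seed family. In mouse myoblasts it is induced with its neighbour miR-503 as cells differentiate, and the pair favours exit from the cell cycle by lowering the phosphatase Cdc25A. In human and mouse muscle, raised miR-424-5p has been linked to wasting through ribosome production, and raised miR-542 through mitochondrial function.

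In the RefSeq annotation of the cattle assembly ARS-UCD2.0, all 5 members matched miRNA genes lying between HPRT1 and PLAC1 on chromosome X. The order there is MIR450B, MIR450A-1, MIR450A-2, MIR542, MIR3601, MIR503 and MIR424, which makes 7 miRNA genes. miR-450a has 2 hairpins, so its counts cannot be assigned to MIR450A-1 or MIR450A-2. The study's files use the build ARS-UCD1.2. miR-3601 had 0 reads in the 64 libraries.

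Library totals ran from 4795950 to 12245155 counts, with a median of 8143027. Levels are given in CPM, the count relative to the library's total after TMM scaling, which corrects each total for the composition of its RNA. Mature miRNAs are of similar length, so no length term was used. The scaling factors ranged from 0.511 to 2.43. The 7 miRNAs listed for skeletal muscle together held 192900 CPM on concentrate (range 110000 to 275000) and 186200 CPM on grass (range 87900 to 333400), and none of the 7 was at 0 in all libraries. Of the 1030 names, 318 passed a filter on low counts and were tested, and all 5 members were among them.

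The cluster was a minor part of the muscle miRNA pool. Its 5 members together averaged 91.09 CPM and held 0.0103% of all counts. miR-450b was the most abundant at 50.27 CPM, which ranked 114 among the 318 tested miRNAs. miR-424-5p averaged 28.57 CPM (rank 132), miR-450a 9.115 CPM (rank 177) and miR-542-5p 2.492 CPM (rank 241). miR-424-3p, the other arm of the miR-424 hairpin, averaged 0.6446 CPM (rank 315) and had reads in 60 of 64 libraries. Its values rest on a median of 3.0 reads a library on concentrate and 7.5 on grass, so each single-library value of this arm has wide counting error. miR-503, the neighbour between MIR542 and MIR424, was detected below the filter, with 0.3289 CPM for miR-503-3p (reads in 53 libraries) and 0.132 CPM for miR-503-5p (reads in 42 libraries).

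All 5 members were lower on concentrate than on grass in each of the 4 classes of breed and RFI. miR-424-5p, the seed-family member, had a lowest, median and highest value of 10.56, 19.0 and 36.46 CPM in the 32 concentrate libraries, against 18.47, 34.35 and 70.16 CPM in the 32 grass libraries. Its diet ranges overlapped between 18.47 and 36.46 CPM, and 29 of 32 concentrate libraries lay below the grass median. The mean on concentrate was 20.41 ± 6.564 CPM and that on grass 36.74 ± 11.18 CPM (SD, n = 32 each), a ratio of 0.556.

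miR-450b, the most abundant member, had 14.6, 34.59 and 71.12 CPM as lowest, median and highest value on concentrate, against 22.48, 62.7 and 123.1 CPM on grass. Here 29 of 32 concentrate libraries were below the grass median but only 3 were below the lowest grass library, the fewest among the 5, while 12 grass libraries were above the highest concentrate library. miR-450a, from its pair of hairpins, had 2.166, 5.577 and 10.95 CPM on concentrate, against 5.47, 11.56 and 21.99 CPM on grass. All 32 concentrate libraries lay below the grass median of miR-450a, and 15 lay below every grass library.

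miR-542-5p had 0.5447, 1.505 and 2.991 CPM as lowest, median and highest value on concentrate, against 1.798, 3.051 and 6.718 CPM on grass. All 32 concentrate libraries were below the grass median, and 21 were below the lowest grass library, the most of the 5 members. miR-424-3p had 0.0, 0.3849 and 1.469 CPM on concentrate, against 0.2452, 0.7484 and 1.897 CPM on grass. The 4 libraries with no read of this arm were all on concentrate, where a count of 0 allows up to between 0.341 and 0.644 CPM (3 counts a library, counting error only).

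**Figure D1:**
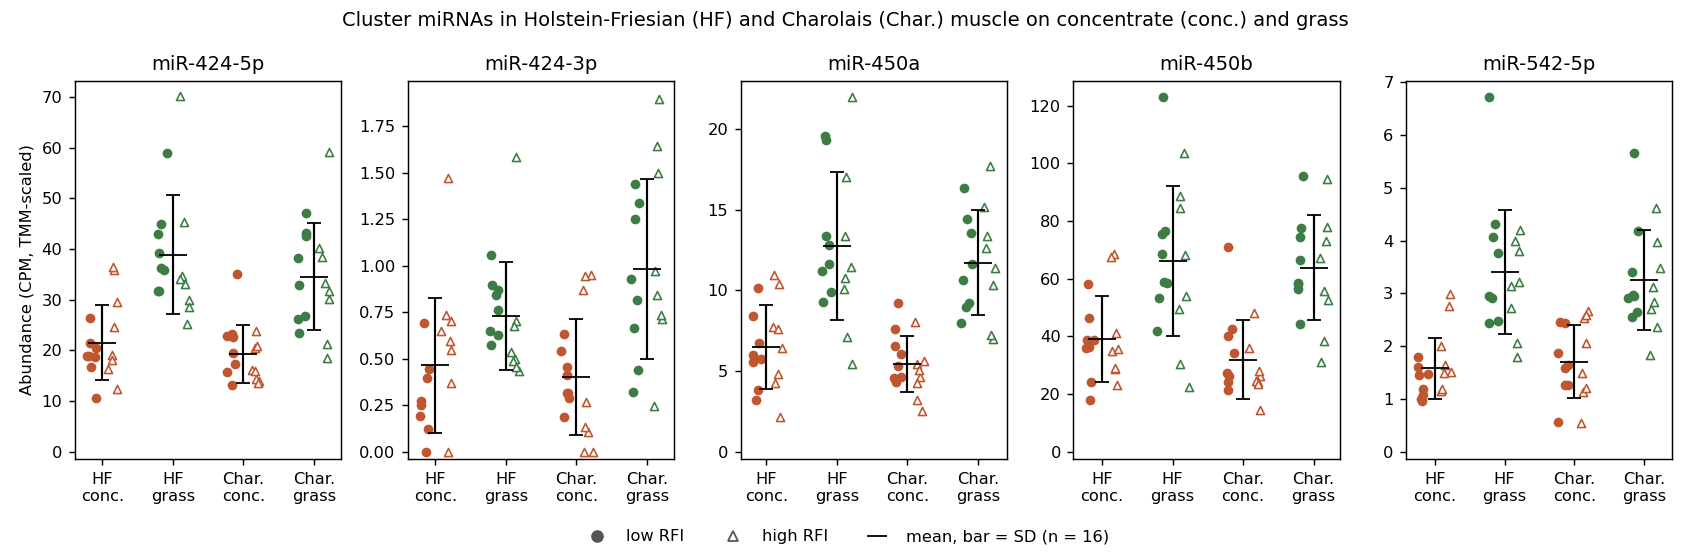
Level (TMM-scaled CPM, linear axis from 0, a scale of its own for each member) of the 5 cluster miRNAs in every library, by breed and diet, with filled circles for low-RFI and open triangles for high-RFI steers. Horizontal lines are means and bars the SD of 16 libraries, and concentrate libraries (orange) sit mostly below grass libraries (green) of the same breed, with 29, 28, 32, 29 and 32 of 32 concentrate libraries below the grass median for miR-424-5p, miR-424-3p, miR-450a, miR-450b and miR-542-5p.

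The fitted log2 differences of concentrate minus grass, averaged over breeds and RFI classes, were all negative, with -0.86 ± 0.107 for miR-424-5p (SE). The other members had -1.03 ± 0.220 for miR-424-3p, -1.05 ± 0.127 for miR-450a, -0.88 ± 0.132 for miR-450b and -1.04 ± 0.126 for miR-542-5p. The median over all 318 tested miRNAs was 0.0161. In that contrast 108 of the 318 tested miRNAs (34.0%) passed an adjusted p of 0.05 in edgeR's quasi-likelihood test, 57 higher and 51 lower. Scaling each library by its total alone put the median of all 318 at -0.24 and gave 7 higher and 118 lower. All 5 members were still lower with that scaling, by -1.34 (miR-450a) to -1.11 (miR-424-5p). A separate fit with TMM scaling and no filter on low counts gave 41 higher and 73 lower. Across the 318, 27 miRNAs (8.49%) had at least 28 of 32 concentrate libraries below the grass median, and since the members were picked for this fall nothing is read from their place among these.

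The fall was present in both breeds. In Holstein-Friesian steers the log2 differences ranged from -1.12 ± 0.176 for miR-542-5p to -0.76 ± 0.187 for miR-450b, and in Charolais steers from -1.29 ± 0.315 for miR-424-3p to -0.85 ± 0.152 for miR-424-5p. The background of calls was 77 of 318 (24.2%, 34 higher and 43 lower) in Holstein-Friesian and 66 of 318 (20.8%, 30 higher and 36 lower) in Charolais steers, and with total-count scaling 6 higher and 88 lower in Holstein-Friesian and 2 higher and 40 lower in Charolais steers. With no filter 24 were higher and 57 lower in Holstein-Friesian steers. In Charolais steers DESeq2 gave 47 higher and 34 lower, and RLE scaling, edgeR's version of DESeq2's size factors, 45 higher and 34 lower, while no filter on low counts gave 12 higher and 32 lower. Within the 4 classes of breed and RFI, the differences in mean log2 CPM of 8 against 8 libraries were smallest in high-RFI Holstein-Friesian steers for all 5 members. There they were -0.66 ± 0.256 for miR-424-5p, -0.16 ± 0.337 for miR-424-3p, -0.84 ± 0.341 for miR-450a, -0.55 ± 0.338 for miR-450b and -0.71 ± 0.217 for miR-542-5p (SE). In low-RFI Holstein-Friesian steers the same differences were -1.08 ± 0.168 for miR-424-5p, -1.05 ± 0.234 for miR-424-3p, -1.11 ± 0.232 for miR-450a, -0.92 ± 0.247 for miR-450b and -1.30 ± 0.192 for miR-542-5p. All 8 concentrate libraries of that low-RFI class were below its lowest grass library for miR-424-5p and miR-542-5p. Whether the diet difference itself differed among the 4 classes of breed and RFI was not tested. The interactions below compare it only between breeds, averaged over RFI, and between RFI classes, averaged over breeds.

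Ordered by group mean, all 4 concentrate groups stood below all 4 grass groups for each member. For miR-424-5p the order was high-RFI Charolais (17.4 ± 3.833 CPM), low-RFI Holstein-Friesian (19.0 ± 4.445), low-RFI Charolais (21.18 ± 6.71) and high-RFI Holstein-Friesian (24.06 ± 9.1) on concentrate, then high-RFI Charolais (34.06 ± 12.59), low-RFI Charolais (35.06 ± 8.949), high-RFI Holstein-Friesian (37.63 ± 14.42) and low-RFI Holstein-Friesian (40.2 ± 8.971) on grass (SD, n = 8 each). For miR-450b the 4 concentrate means ran from 28.11 ± 9.996 CPM in high-RFI Charolais to 41.08 ± 17.46 CPM in high-RFI Holstein-Friesian steers. Its 4 grass means ran from 61.34 ± 21.09 CPM in high-RFI Charolais to 69.57 ± 24.56 CPM in low-RFI Holstein-Friesian steers. Neighbours in these orders differed by less than the larger of their 2 SDs throughout. The exceptions were miR-450a and miR-542-5p, each at the step between the highest concentrate group and the lowest grass group. For miR-450a that step was 6.797 ± 3.008 CPM in high-RFI Holstein-Friesian on concentrate against 11.6 ± 2.956 CPM in low-RFI Charolais on grass. For miR-542-5p it was 1.841 ± 0.6913 CPM in high-RFI Holstein-Friesian on concentrate against 3.117 ± 0.8915 CPM in high-RFI Charolais on grass.

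miRNAs of blood cells were higher in the same concentrate libraries. The counts called in each list below stand beside 108 of all 318 tested miRNAs (34.0%), 57 higher and 51 lower. The 2 erythrocyte miRNAs of the list, miR-451 and miR-144, both rose in edgeR's test (miR-451 by 1.30 ± 0.369 on the log2 scale, adjusted p = 0.00522). Their summed level averaged 9013 CPM on concentrate (range 680.3 to 49570) and 3413 CPM on grass (range 300.2 to 11350). Of 6 leukocyte miRNAs 5 rose, and their sum averaged 910.5 CPM on concentrate (range 367.8 to 2567) and 584.0 CPM on grass (range 255.5 to 1346). With no filter on low counts 1 of the 2 and 2 of the 6 passed, and with total-count scaling 0 of the 8, with medians of 0.83 (erythrocyte) and 0.16 (leukocyte). None of the 8 was at 0 in all libraries, and their part in the members' diet difference was not tested. Of the 7 skeletal muscle miRNAs 1 rose, miR-1, and of the 2 endothelial and the 5 smooth muscle and fibroblast miRNAs none passed the test in either direction, while total-count scaling gave 2 lower skeletal muscle miRNAs and 4 lower of the 5. Of the 2 liver miRNAs, miR-192 rose by 0.14 ± 0.0567 (adjusted p = 0.0435; -0.12 with total-count scaling, and not called with no filter) and miR-122 did not pass the filter. In bulk muscle, fewer cells of a type and less RNA per cell cannot be told apart.

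In the 5 steers with a library on each diet, miR-450a, miR-542-5p and miR-424-3p were lower on concentrate in all 5, and miR-424-5p and miR-450b in 4 of 5. By library totals alone each of the 5 members was lower in all 5. Compared with TMM scaling, totals alone lower a steer's concentrate values against its grass values where its factor is lower on concentrate. The factors on concentrate and grass were 0.767 and 0.997, 0.759 and 0.755, 0.938 and 1.14, and 0.601 and 1.3 in the Charolais steers. How many other tested miRNAs were lower in all 5 steers is not given here, so these counts have no background. For miR-450a the log2 difference of concentrate minus grass within a steer had a median of -0.81 and ranged from -1.40 to -0.39. For miR-542-5p it had a median of -0.53 and ranged from -0.60 to -0.32, against -1.04 ± 0.126 in the fit over all libraries. The exception was the Holstein-Friesian steer, with 35.89 CPM of miR-424-5p on concentrate and 29.9 CPM on grass, and its direction rests on the scaling. Its TMM factors were 0.705 on concentrate and 2.43 on grass, the highest of the 64, and by library totals alone it had 25.32 CPM of miR-424-5p on concentrate and 72.76 CPM on grass. Its miR-450b stood at 68.43 CPM on concentrate and 49.52 CPM on grass with TMM scaling, but at 48.27 CPM and 120.5 CPM by totals, while its miR-424-3p was nearly level with TMM scaling, at 0.7037 CPM on concentrate and 0.7046 CPM on grass. A low-RFI Charolais steer, replicate 4 in its group on each diet, had the highest miR-450b of its group both times, with 71.12 CPM on concentrate and 95.61 CPM on grass.

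**Figure D2:**
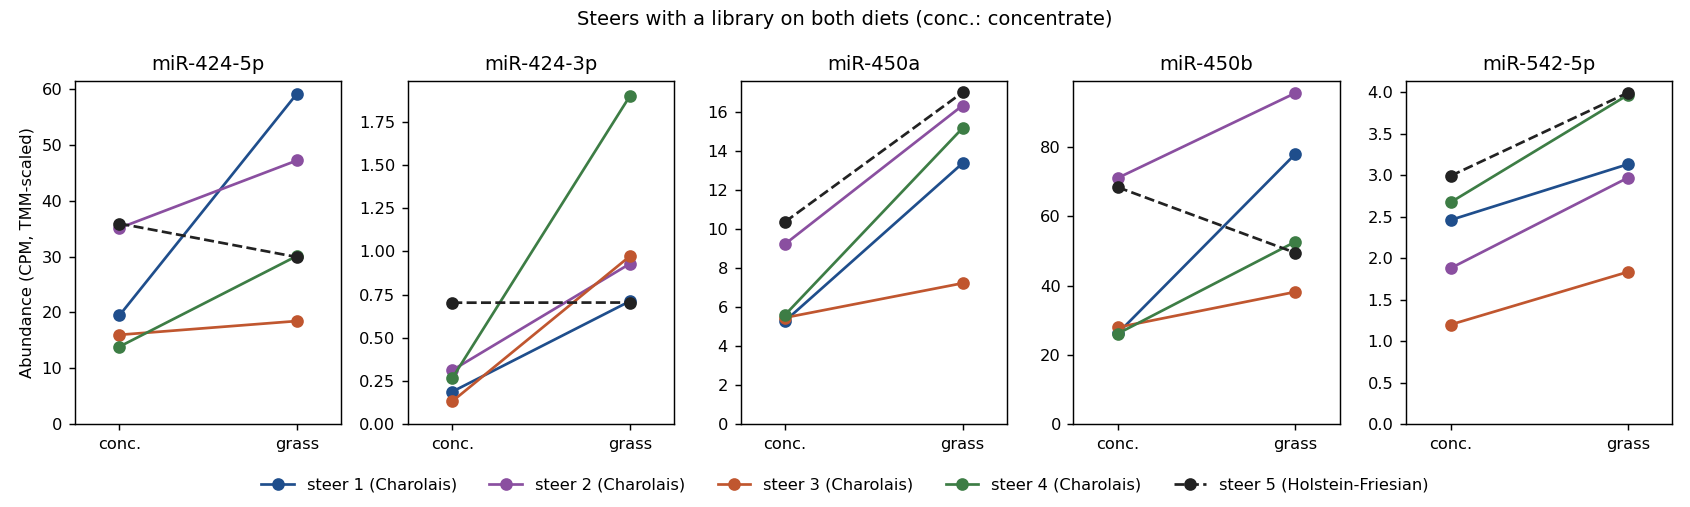
Level of each cluster miRNA (TMM-scaled CPM, linear axis from 0) in the 5 steers with a library on each diet, concentrate at the left and grass at the right, 1 line a steer. Lines run up towards grass in 5 of 5 steers for miR-450a and miR-542-5p, while the Holstein-Friesian steer (dashed) runs down for miR-424-5p (35.89 CPM on concentrate and 29.9 on grass) and miR-450b (68.43 CPM on concentrate and 49.52 on grass), which by library totals alone were lower on concentrate in this steer too (25.32 against 72.76 CPM and 48.27 against 120.5 CPM).

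The mean shares of the members stood in the same order on both diets although their total differed. The members were picked for a joint fall, so shares that shift little partly follow from that choice. Differences in share between the diets were not tested. The sum of the 5 averaged 63.98 ± 22.63 CPM on concentrate and 118.2 ± 35.54 CPM on grass (SD, n = 32 each). miR-450b made up 54.8% of that sum on concentrate and 54.3% on grass. The share of miR-424-5p was 32.5% on concentrate and 31.5% on grass, that of miR-450a 9.33% and 10.5%, that of miR-542-5p 2.7% and 2.98%, and that of miR-424-3p 0.677% and 0.747%. Over all 64 libraries the SD of the miR-450b share was 5.13 percentage points and that of the miR-424-5p share 4.68 points. The SD of the miR-450a share was 1.57 points on concentrate and 2.03 points on grass. These SDs describe the spread between libraries and do not test a difference between the diet means. miR-503, which was not a member and was not tested, averaged 0.1975 CPM on concentrate and 0.4603 CPM on grass for its 3p arm, and 0.08976 CPM and 0.1743 CPM for its 5p arm. miR-503-3p had no read in 10 of 32 concentrate libraries and in 1 of 32 grass libraries.

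Turning to what the choice of members did not use, the breeds were compared first. miR-424-5p had a lowest, median and highest value of 10.56, 29.7 and 70.16 CPM in the 32 Holstein-Friesian libraries, against 13.11, 23.31 and 59.09 CPM in the 32 Charolais libraries. The breeds overlapped between 13.11 and 59.09 CPM, and 21 of 32 Holstein-Friesian libraries lay above the Charolais median. miR-450b averaged 52.61 ± 24.98 CPM in Holstein-Friesian and 47.93 ± 22.65 CPM in Charolais muscle, and miR-450a 9.64 ± 4.856 CPM and 8.589 ± 4.093 CPM (SD, n = 32 each). miR-542-5p was level, at 2.498 ± 1.303 CPM in Holstein-Friesian and 2.487 ± 1.138 CPM in Charolais muscle.

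None of the 5 members passed the breed test averaged over diets (edgeR, adjusted p from 0.236 to 0.996), none had an unadjusted p under 0.05, and DESeq2 and limma-voom also called 0 of 5. Breed did separate other miRNAs in the same fit: 69 of 318 passed (21.7%), 35 higher and 34 lower, or 37 higher and 3 lower with total-count scaling. The log2 differences of Holstein-Friesian minus Charolais were 0.17 ± 0.106 for miR-424-5p, -0.11 ± 0.228 for miR-424-3p, 0.20 ± 0.126 for miR-450a, 0.18 ± 0.132 for miR-450b and -0.00 ± 0.123 for miR-542-5p. Their 95% intervals together span -0.57 to 0.45, and that of miR-542-5p runs from -0.25 to 0.24. On concentrate alone 0 of 5 passed beside 5 of 318 (1.57%; 3 higher and 2 lower, or 2 and 0 with total-count scaling), with differences from -0.08 to 0.30. On grass alone 0 of 5 passed beside 97 of 318 (30.5%; 47 higher and 50 lower, or 47 and 3 with total-count scaling), with differences from -0.38 ± 0.270 for miR-424-3p to 0.17 ± 0.149 for miR-424-5p. With each library scaled by its total alone, the median of all miRNAs in the breed contrast moves to 0.12 and the differences of miR-424-3p and miR-542-5p turn positive, with none of the 5 called.

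Feed efficiency was compared next. miR-424-5p averaged 28.86 ± 11.59 CPM in low-RFI and 28.29 ± 13.08 CPM in high-RFI muscle, and miR-450b 52.22 ± 23.36 CPM and 48.32 ± 24.38 CPM (SD, n = 32 each). miR-542-5p averaged 2.521 ± 1.395 CPM in low-RFI and 2.464 ± 1.024 CPM in high-RFI muscle. The RFI classes overlapped over much of their ranges for every member, with 12 to 21 of 32 low-RFI libraries above the high-RFI median. For miR-542-5p the highest value was 6.718 CPM in low-RFI and 4.619 CPM in high-RFI muscle.

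Averaged over breeds and diets, 0 of 5 members and 0 of 318 miRNAs (0.0%) passed the RFI test in edgeR, where 10 of 318 and none of the 5 had an unadjusted p under 0.05, and DESeq2 and limma-voom also called none. The log2 differences of low minus high RFI were 0.02 ± 0.106 for miR-424-5p, -0.26 ± 0.223 for miR-424-3p, 0.07 ± 0.126 for miR-450a, 0.12 ± 0.132 for miR-450b and -0.04 ± 0.125 for miR-542-5p, each with adjusted p = 0.998, and their 95% intervals span -0.71 to 0.38. Scaling by library totals alone turns the signs of miR-424-5p and miR-450a and puts the median of all 318 at -0.12.

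Within Holstein-Friesian steers on concentrate all 5 members had lower estimates in the low-RFI class. The median log2 difference of all tested miRNAs was -0.05 there, or -0.37 with total-count scaling. The members also correlate, so their signs are not independent. miR-424-5p averaged 19.0 ± 4.445 CPM in low-RFI and 24.06 ± 9.1 CPM in high-RFI steers there (SD, n = 8 each), and miR-424-3p 0.2968 ± 0.2137 CPM and 0.634 ± 0.4128 CPM. The log2 differences ran from -0.87 ± 0.480 for miR-424-3p (edgeR adjusted p = 0.497) to -0.11 ± 0.255 for miR-450a. None passed the test, nor did any of the 318 miRNAs (0.0%), of which 35 had an unadjusted p under 0.05. In Charolais steers on concentrate the estimates of miR-424-5p (0.28 ± 0.215), miR-450a (0.31 ± 0.264) and miR-450b (0.35 ± 0.266) had the opposite sign, with edgeR adjusted p from 0.882 to 0.914. On grass the estimates ran from 0.09 to 0.21 in Holstein-Friesian (-0.08 to 0.03 with total-count scaling) and from -0.29 to 0.11 in Charolais steers, and neither class gave a call among the 5 or the 318 (0.0% each, with 17 unadjusted p under 0.05 in each).

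The interactions ask whether the effect of a factor differs with another, averaged over the remaining factor. In the breed by diet interaction, the concentrate minus grass difference of Holstein-Friesian steers minus that of Charolais steers, 0 of 5 members passed (edgeR adjusted p from 0.465 to 0.955) beside 13 of 318 (4.09%; 9 positive and 4 negative, or 5 and 9 with DESeq2, 5 and 6 with RLE scaling and 0 and 1 with total-count scaling). The estimates were 0.53 ± 0.451 for miR-424-3p, 0.25 ± 0.263 for miR-450b, 0.13 ± 0.251 for miR-450a, -0.02 ± 0.213 for miR-424-5p and -0.16 ± 0.252 for miR-542-5p. The interval of miR-424-5p, from -0.44 to 0.41, is the narrowest of these 5, and that of miR-424-3p, from -0.37 to 1.43, the widest. In the RFI by diet interaction miR-542-5p had the lowest unadjusted p of the members (-0.40 ± 0.252, unadjusted p = 0.121, edgeR adjusted p = 0.978). All 5 members had negative estimates in the RFI by breed interaction, from -0.28 ± 0.212 for miR-424-5p to -0.11 ± 0.251 for miR-542-5p, with edgeR adjusted p from 0.703 to 0.962. The median of all tested miRNAs was -0.03 there, or -0.23 with total-count scaling. The members also correlate, so their signs are not independent. Neither RFI interaction gave a call among the 318 (0.0% each), where 14 had an unadjusted p under 0.05 with diet and 32 with breed, and DESeq2 and limma-voom called 0 as well.

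**Figure D3:**
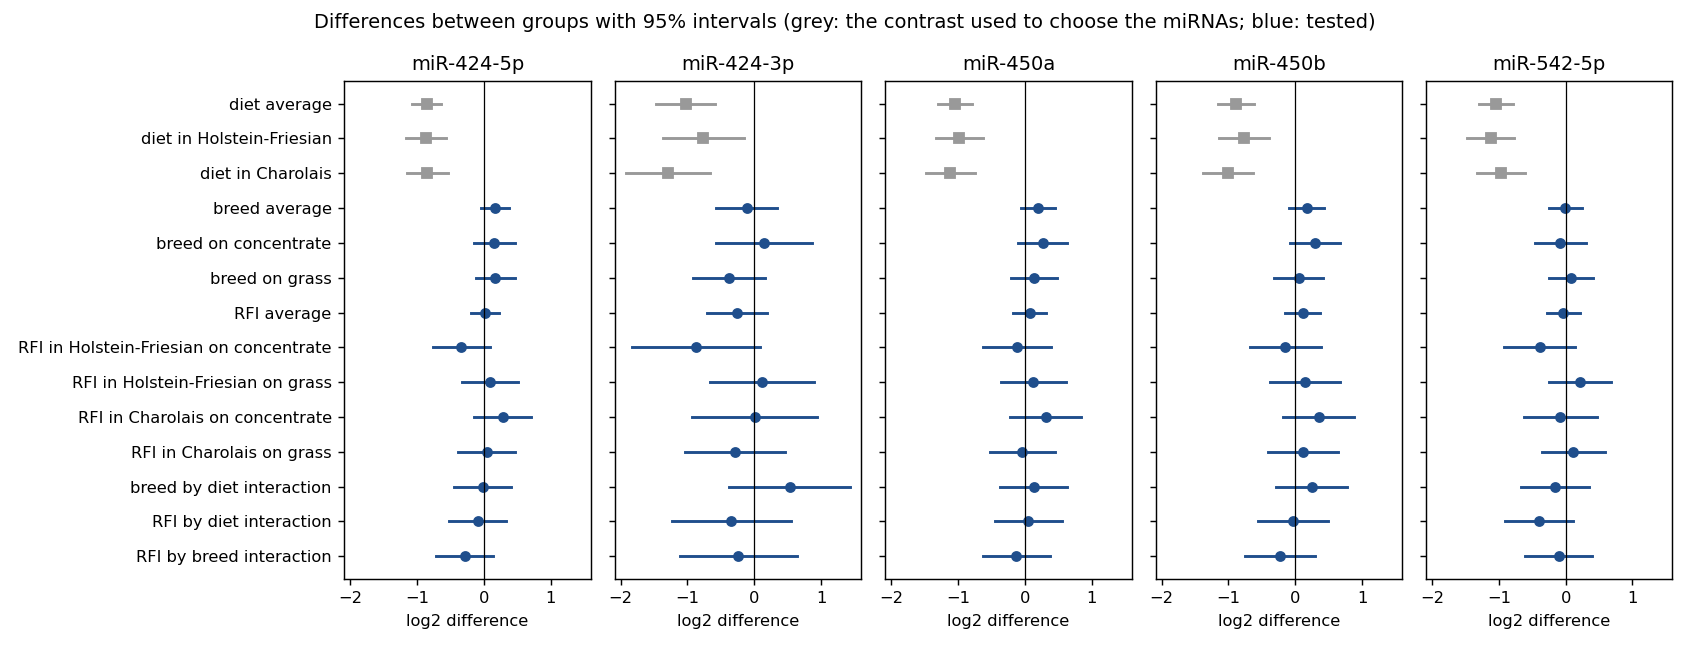
Fitted log2 differences (points) with 95% intervals (lines) of the 5 cluster miRNAs in each comparison, on 1 log2 axis. Diet differences (grey squares, concentrate minus grass) chose the members and are untested, and all lie below 0, while the 11 tested comparisons (blue circles: Holstein-Friesian minus Charolais, low minus high RFI, and the interactions) have intervals that include 0 for every member.

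The ratio of the miR-424 arms compares 2 products of 1 hairpin within a library and needs no scaling between libraries. Over all libraries there were 17076 reads of miR-424-5p and 395 of miR-424-3p, so the 3p arm made up 2.26% of the pooled reads (95% Wilson interval 2.05 to 2.49%, counting error only). Its pooled share was 2.04% on concentrate (1.69 to 2.46%) and 2.36% on grass (2.1 to 2.64%). By breed it was 1.96% in Holstein-Friesian (1.71 to 2.24%) and 2.69% in Charolais muscle (2.34 to 3.09%). These intervals leave out the spread between steers. The mean log2 ratio of 5p to 3p, with 0.5 added to each count, was 5.646 ± 0.709 in Holstein-Friesian and 5.406 ± 0.926 in Charolais muscle (SD, n = 32 each). A permutation test within diet and RFI class gave a difference of 0.24 with p = 0.254 (two-sided, 100000 resamples, 0.508 adjusted over 2 tests). With 1 added to each count the permutation p for breed was 0.139. Without the repeated steers' concentrate libraries it was also 0.139. The ratio was 5.569 ± 0.592 in low-RFI and 5.483 ± 1.02 in high-RFI muscle, a difference of 0.09 (permutation p = 0.679, adjusted 0.679).

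The members moved together from steer to steer inside the groups. For this the mean of its group was taken from each library's log2 CPM, so that differences between diets, breeds and RFI classes no longer enter, and Pearson's r and Spearman's rho were computed over the 64 libraries for all 10 pairs with permutation within groups. All 10 pairs correlated positively, and all passed after adjustment over the 10. The share of pairs of other miRNAs that pass the same test is not given here, so the 10 have no background count. The closest pair was miR-450a and miR-450b, encoded next to each other, with r = 0.813 and rho = 0.773 (permutation p = 1e-05, the smallest these permutations can give, adjusted 3.33e-05). Next came miR-424-5p with miR-450b (r = 0.789, rho = 0.765, adjusted permutation p = 3.33e-05) and with miR-450a (r = 0.702, rho = 0.615, adjusted permutation p = 3.33e-05).

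The arms of miR-424 correlated at r = 0.487 (rho = 0.454, permutation p = 9e-05, adjusted 0.00018), beside 0.789 for miR-424-5p with miR-450b. miR-542-5p had r = 0.522 with miR-450a (rho = 0.519, adjusted permutation p = 7.5e-05), 0.438 with miR-424-3p (rho = 0.428, 0.00156), 0.42 with miR-424-5p (rho = 0.401, 0.000886) and 0.376 with miR-450b (rho = 0.323, 0.00399). miR-424-3p had r = 0.498 with miR-450a (rho = 0.363, adjusted permutation p = 0.00025) and the lowest r of all, 0.36, with miR-450b (rho = 0.263, 0.00457). The 2 least abundant members carry the most counting error, and differences between these correlations were not tested. Leaving out the 2 libraries farthest from the median of the first member gave r from 0.274 (miR-424-3p with miR-450b) to 0.807 (miR-450a with miR-450b). Within each of the 4 combinations of breed and diet (n = 16 each) every pair stayed positive. The lowest was 0.159 (miR-450b with miR-542-5p in Holstein-Friesian on grass) and the highest 0.925 (miR-450a with miR-450b in Holstein-Friesian on concentrate).

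**Figure D4:**
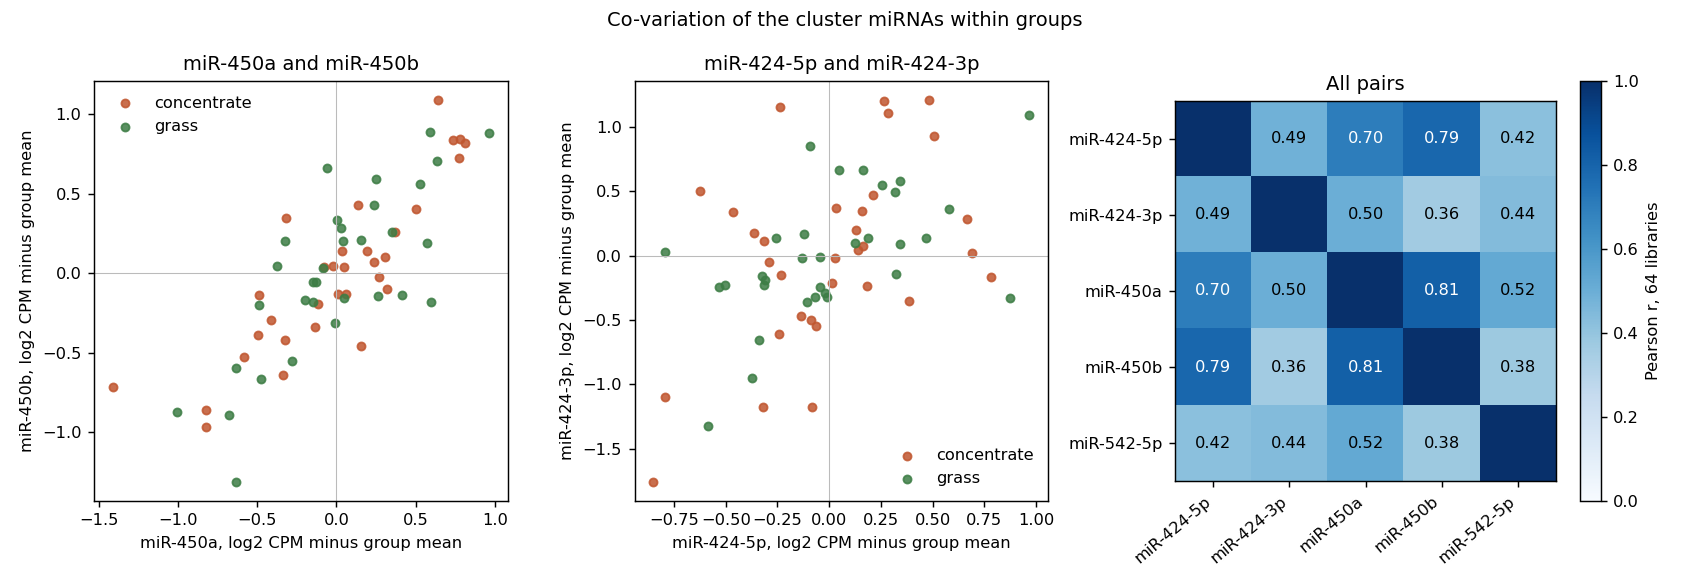
Log2 CPM of each library minus the mean of its group, for miR-450a against miR-450b (left) and miR-424-5p against miR-424-3p (middle), with orange points for concentrate and green for grass, and Pearson's r of all pairs over 64 libraries (right, colour scale from 0 to 1). The miR-450 pair lies along a line with r = 0.813, the miR-424 arms scatter more with r = 0.487, and no pair is below 0.36.

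A score made of the mean standardised deviation of the 5 members was then set against each of the 313 other tested miRNAs in the same 64 libraries, as a description. The median r over these was 0.0191. With the score of the other 4, a member had r = 0.758 (miR-424-5p), 0.532 (miR-424-3p), 0.812 (miR-450a), 0.734 (miR-450b) or 0.523 (miR-542-5p). The score had r = 0.082 with the log2 TMM factor and 0.0931 with the log2 library total. The miRNAs most like it were miR-154c (r = 0.596), let-7e (0.525), miR-30d (0.46), miR-411c-5p (0.459), miR-369-5p (0.459) and miR-125a (0.446). miR-154c, miR-411c-5p and miR-369-5p map to chromosome 21 and passed the diet test, lower on concentrate. miR-154c averaged 9.025 ± 3.1 CPM on concentrate and 15.45 ± 4.61 CPM on grass (log2 difference -0.78 ± 0.119, edgeR adjusted p = 2.2e-07). let-7e and miR-30d had differences near 0 (0.02 ± 0.0756 and 0.03 ± 0.0768, edgeR adjusted p = 0.849 and 0.818), both negative with total-count scaling (-0.26 and -0.20, adjusted p = 0.0853 and 0.0936). With total-count scaling the r of these 6 lay between 0.667 and 0.787 instead.

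Of the 7 miRNAs listed as sharing the seed of miR-424-5p, 6 were tested, and on concentrate 3 rose, 1 fell and 2 did not pass, with a median log2 difference of 0.17. Over all 318 tested miRNAs 34.0% passed, 57 higher and 51 lower, with a median of 0.0161. The rises did not hold under every alternative: with library totals alone 0 of the 6 rose and 2 fell (miR-195 and miR-497, median -0.09), with miR-16a and miR-15a negative, and with no filter on low counts 0 rose and 1 fell (median 0.11). The members' own median difference was -1.03 in the main analysis. miR-16b, the most abundant, averaged 1061 ± 542 CPM on concentrate and 812.6 ± 180 CPM on grass (0.37 ± 0.115, edgeR adjusted p = 0.00992). miR-16a averaged 702.6 ± 177 CPM on concentrate and 612.9 ± 99 CPM on grass (0.20 ± 0.0759, adjusted p = 0.0358). miR-195 (-0.08 ± 0.0935, adjusted p = 0.509) and miR-15a (0.14 ± 0.0837, adjusted p = 0.174) did not pass. miR-497, the family member that fell, averaged 50.39 ± 10.9 CPM on concentrate and 59.76 ± 10.4 CPM on grass (-0.25 ± 0.0718, adjusted p = 0.00622). Summed over the list, these miRNAs held 2170 CPM on concentrate and 1831 CPM on grass, beside 20.41 CPM and 36.74 CPM of miR-424-5p. In the breed comparison 1 of the 6 passed, miR-15a, which was lower in Holstein-Friesian muscle (-0.34 ± 0.0837, edgeR adjusted p = 0.00295, with 0 of 6 passing under total-count scaling), and the RFI comparison gave 0.

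Among 26 miRNAs with reported roles in myoblasts or muscle growth, 4 rose and 5 fell on concentrate (median log2 difference -0.04), a called share of 34.6% beside 34.0% of all tested miRNAs, and with total-count scaling 0 rose and 14 fell (median -0.30). miR-127, an imprinted miRNA, averaged 795.8 ± 201 CPM on concentrate and 1397 ± 372 CPM on grass (-0.80 ± 0.0868, edgeR adjusted p = 2.14e-11). The other falls were in miR-128 (-0.37 ± 0.0963), miR-181b (-0.30 ± 0.0685), miR-181a (-0.18 ± 0.0673) and miR-27b, which lowers Pax3 in mouse muscle precursors (-0.17 ± 0.0581). miR-1, which favours differentiation, rose by 0.48 ± 0.0914 (adjusted p = 2.89e-05), and miR-29b, miR-29c and miR-221 rose by 0.45 ± 0.0941, 0.28 ± 0.0776 and 0.37 ± 0.142. Between breeds 10 of the 26 were higher and 3 lower in Holstein-Friesian muscle (10 and 1 with total-count scaling), so that 13 of 26 passed beside 21.7% of all tested miRNAs, and between RFI classes 0 of 26 passed.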

How the data were processed

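Small RNA of bovine skeletal muscle was sequenced in 64 libraries. Per the labels' protocols, an RNeasy Plus Universal kit gave the RNA and a TruSeq stranded RNA kit the libraries. FastQC 0.11.8, cutadapt 2.6, R 3.4, edgeR 3.5 and the build ARS-UCD1.2 were used, per the submitters' processing notes, each with its role left unstated. The selection of small RNA, the aligner, the counter and its annotation were not stated there. The deposited table holds estimated counts, not normalized, for 1030 miRNA names. Of these, 60 held fractional values (more than 0.001 from a whole number), which were rounded, and none was a member. miR-2285b, with empty cells, was left out. All 64 columns matched a library by animal and phase.

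Counts were tested with edgeR 4.0.16 (R 4.3.3): TMM scaling, filterByExpr over the 8 groups (318 kept, 0.00595% of counts left out), 8 group means with a shared spread (56 residual degrees of freedom), the robust quasi-likelihood test and Benjamini-Hochberg adjustment over the 318 within each of 14 contrasts, at 0.05. Members' p-values in diet contrasts are not given. Correlations used log2 CPM with a prior count of 2, and permutation tests 100000 resamples (SciPy 1.17.1). The edgeR, limma-voom and DESeq2 fits were tried on simulated counts with changes between breeds, read in the breed average contrast only. The other contrasts, the permutation tests and the correlations were not tried on simulated data. Groups come from the labels, and the replicates were different steers, except that 5 steers appear on each diet. Replicate numbers pair no samples otherwise. For those 5 the correlation of deviations from the group means over miRNAs was 0.168, 0.399, 0.598, 0.287 and -0.109, and the animal as a block was an alternative.

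The other alternatives were DESeq2 1.42.0, RLE and total-count scaling, no filter, limma-voom (limma 3.58.1), leaving out the repeated steers' concentrate libraries, each library in turn, and the libraries of highest and lowest TMM factor; for the repeated steers, library totals alone were tried after seeing the data. The members, the lists and the rule for the named miRNAs were chosen with earlier results of these data known. That rule takes the 5 members, other names of the locus, the 6 non-members most like the members' score, the seed and myoblast lists and the cell type markers; the naming of miR-106b, miR-18a, miR-497 and miR-15a followed a look at their values. Wilson intervals and limits for counts of 0 cover counting error only, while those of fitted log2 differences cover the spread between libraries.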

Additional observations from a re-analysis of the deposited data

Results flagged for a closer look

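In 6 of the 40 sets of 8 libraries (5 members in 8 groups), the highest library stood apart by Dixon's ratio of its gap to the group's range (past its 95% critical value for 8 values). For independent, normally distributed values about 1 set in 20 would be flagged. The members correlate across the same libraries and CPM need not be normal, so the 6 cannot be set against that rate. Low-RFI Charolais on concentrate replicate 4 had 35.09 CPM of miR-424-5p (next library 23.15, group median 21.1) and 71.12 CPM of miR-450b (next 42.42, median 30.67). High-RFI Holstein-Friesian on grass replicate 8 had 70.16 CPM of miR-424-5p (next 45.34, median 33.61) and 1.582 CPM of miR-424-3p (next 0.7046, median 0.5163). Low-RFI Holstein-Friesian on grass replicate 8 had 123.1 CPM of miR-450b (next 76.48, median 63.75) and 6.718 CPM of miR-542-5p (next 4.319, median 3.364). The 6 values come from 3 libraries, each high in a pair of members, and the cause was not tested. Leaving out any 1 of the 64 libraries gave no call of a member in a tested comparison.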

How the results depend on the processing

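No member was called in any of the 11 tested comparisons under the 9 alternatives or the 64 fits that left out 1 library, and the lowest adjusted p of a member in any of them was 0.108 (edgeR, total-count scaling). Of the 55 tested member values, 21 changed sign under an alternative other than leaving out 1 library, 14 of them with total-count scaling, and none of these was called. The members' diet differences changed sign 0 times. Total-count scaling put the diet median of all 318 miRNAs at -0.24 and the members at -1.11 for miR-424-5p, -1.30 for miR-424-3p, -1.34 for miR-450a, -1.13 for miR-450b and -1.31 for miR-542-5p. All 10 pair correlations kept passing with a prior count of 0.5 and without the repeated steers' concentrate libraries. They also passed with total-count scaling, which is a weak check. That scaling raised the r of non-members with the members' score too, such as miR-30d (0.46 to 0.756) and miR-106b (-0.481 to 0.227).

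The counts over all 318 miRNAs moved more, and the cause was not tested. With total-count scaling 40 passed in the breed average (37 higher, 3 lower; 69 in the main analysis, 35 and 34), 50 on grass (47 higher, 3 lower; 97), 2 on concentrate (5), 1 in the breed by diet interaction (13) and 42 in the diet contrast of Charolais (2 higher, 40 lower; 66). In the breed comparison on concentrate, limma-voom and the animal as a random replicate block gave 3 each and leaving out the repeated steers' concentrate libraries 1. The replicate block, with an estimated correlation of 0.389 within an animal, changed no call of a member. Leaving out the repeated steers' libraries gave 4 in the RFI comparison of Holstein-Friesian on concentrate (0) and 7 in the breed by diet interaction. That interaction gave 8 without the libraries of highest and lowest TMM factor, an alternative chosen after seeing the data.

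Leaving out 1 library gave 3 to 8 in the breed comparison on concentrate, with 11 libraries moving the count by over 1.5 times: replicates 2, 6 and 7 of high-RFI Holstein-Friesian (8 without replicate 2), 3, 4, 7 and 8 of low-RFI Holstein-Friesian, 1 and 6 of high-RFI Charolais, and 2 and 8 of low-RFI Charolais, all on concentrate. The breed by diet interaction gave 8 to 29. It was 29 without low-RFI Holstein-Friesian on grass replicate 7 and 23 without high-RFI Holstein-Friesian on concentrate replicate 6. It was 8 without replicate 2 or 6 of high-RFI Holstein-Friesian on grass, 1 or 6 of low-RFI Charolais on concentrate, or 5 or 8 of low-RFI Holstein-Friesian on concentrate. The RFI comparison of Holstein-Friesian on concentrate gave 0 to 4 (4 without its high-RFI replicate 1, 1 without its high-RFI replicate 5 or 7 or high-RFI Holstein-Friesian on grass replicate 1). The RFI by breed interaction gave 0 to 1 (1 without low-RFI Charolais on grass replicate 4 or high-RFI Holstein-Friesian on grass replicate 7). The diet contrast of Charolais gave 40 to 85, with 40 without high-RFI Charolais on concentrate replicate 3. Depth limits miR-424-3p most, with a median of 3.0 reads a library on concentrate.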

Other observations

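At the other end of the likeness ranking, the miRNAs whose deviations ran most against the members' score in the 64 libraries were miR-106b (r = -0.481) and miR-18a (r = -0.478). With total-count scaling their r turned positive (0.227 for miR-106b and 0.116 for miR-18a), so the direction rests on the scaling. miR-18a rose on concentrate, with 9.695 ± 9.03 CPM on concentrate and 5.384 ± 3.43 CPM on grass (log2 difference 0.81 ± 0.249, edgeR adjusted p = 0.00936, SD over n = 32 each). miR-106b averaged 36.63 ± 22.8 CPM on concentrate and 27.17 ± 10.5 CPM on grass (0.38 ± 0.144, edgeR adjusted p = 0.0335). With total-count scaling neither passed (0.48 for miR-18a, adjusted p = 0.169, and 0.10 for miR-106b, adjusted p = 0.69).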
